A study of Mus musculus with 14 samples.

Results

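Transcriptional corepressors are proteins that bind no DNA themselves but are brought to genes by DNA-bound factors and there recruit histone deacetylases, enzymes that remove acetyl groups such as the one on lysine 9 of histone H3 (H3K9ac). H3K9ac marks the starts and inner enhancers of active genes. Bcl6, Zbtb16 (also called PLZF) and Zbtb20 belong to the BTB zinc finger family, whose zinc fingers bind DNA and whose BTB domain, in Bcl6 and Zbtb16, holds corepressors such as Ncor1. In the liver, Bcl6 represses lipid genes and takes part in the growth hormone response, and Zbtb20 silences the alpha-fetoprotein gene after birth. The genes described are 9 of the 21883 mouse protein-coding genes with coordinates: the ETO family corepressors Cbfa2t2 and Cbfa2t3, the corepressor scaffolds Ncor1, Sin3a and Rcor1, the nuclear receptor corepressor Nrip1 (RIP140), and the 3 BTB genes Bcl6, Zbtb16 and Zbtb20.

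H3K9ac was profiled by ChIP-seq, the sequencing of DNA pulled down with an antibody to the mark, in the regenerating liver of male C57BL6/J mice aged 2 to 3 months, collected 12 h after partial hepatectomy, the surgical removal of part of the liver. The d22 and pbs title groups hold 6 libraries each, with 1 pooled input per group. The treatment labels contradict the titles: the d22 libraries carry the vehicle label (diluted PBS), the pbs libraries carry a label of 22.5% dextrose in that vehicle, and both inputs carry the dextrose label. For this reason the title names each library here, differences are taken as d22 minus pbs, and none is ascribed to dextrose. The labels do not say whether each library came from its own mouse, so p-values measure the spread between libraries, which may be technical. Liver is a mixture of cell types, and fewer cells of a type cannot be told apart from less acetylation per cell.

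Every list of peaks called by the authors was searched for peaks overlapping the mm10 RefSeq span of a gene extended by 10 kb on each side. Overlapping peaks of the 12 lists were merged into regions, numbered within each gene from the lowest coordinate up. The 9 genes held 129 of the 57979 regions of the series. Of these, 29 were called in all 12 libraries (shared regions, of 12375 in the series), 55 in a single library and 45 in 2 to 11. A shared region within 1 kb of either end of the gene span is called a gene-end region, and the one with the most tags (aligned reads) is the lead region. The 9 genes were chosen by name and function, but with knowledge of their tags, called length and fold enrichment in d22 and pbs, so the selection rested on measured values of these same libraries and their differences are given as a description and not as a test.

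The libraries held 6343891 to 13259411 filtered tags. Called peaks held 16.4% to 23.8% of them in d22 and 19.9% to 26.6% in pbs. Library d22 4, the shallowest, listed 44585 peaks against 26352 to 30780 in the other 11. Library pbs 3, of nearly the same depth (6385610 filtered tags), listed 29087. The tags were 48 bp long in pbs 1, 4 and 6 and 49 bp in the other libraries. All 10 hepatocyte markers examined (among them Alb, Apob and Hnf4a) had a shared gene-end region. Their summed tags were 312 to 454 per 1000000 filtered tags of the library in d22 and 423 to 507 in pbs. On that scale the median log2 difference of all shared regions was also negative, at -0.22. Scaled as in the test below, the median of the markers was -0.16, beside 0.003 over all regions. By edgeR 0 passed in either direction, with 4 at an unadjusted p under 0.05 (10.9% of all regions in either direction), and 0 passed by DESeq2. All 4 had the lower value in d22, with log2 differences of -0.56 for Alb, -0.45 for Ass1, -0.28 for Serpina1a and -0.23 for Apob, and the part of hepatocyte content in the results below was not tested. Shared gene-end regions were found for 1 of 8 macrophage markers, 2 of 7 endothelial, 0 of 7 stellate, 1 of 6 cholangiocyte, 1 of 7 lymphocyte, 0 of 6 neutrophil and 2 of 8 erythroid or megakaryocyte markers. Of the macrophage markers 4 of 8 (Cd5l, Marco, Vsig4 and Timd4) had no gene-end peak in any library. The same held for 0 of 7 endothelial, 1 of 7 stellate and 4 of 6 neutrophil markers. It also held for 5 of 6 cholangiocyte markers (among them Krt19, Krt7 and Epcam). Of the lymphocyte markers 5 of 7 (among them Ptprc and Cd3e) had none, and of the erythroid or megakaryocyte markers 3 of 8.

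The promoters of these genes differed widely in base composition. RefSeq promoter sequences (GRCm38.p6, 250 bases before the start to 50 after) were at hand for 8 of the 9 genes, 13 sequences in all, and 5 are shown: both starts of Cbfa2t3, whose 2 shared regions passed the test below, the start of its paralog Cbfa2t2, the inner start within the widest region of the 9 genes (Bcl6), and the Zbtb20 start, which had a peak nearby in 3 of 6 d22 and 6 of 6 pbs libraries. Capitals mark matches on either strand to the GC box GGGCGG, the CCAAT box CCAAT, the TATA box TATAAA, the E-box CACGTG and the STAT-type element TTCNNNGAA; where 2 matches overlap, the capitals run on. Over all 32851 promoters in the table, 35.7% held the GC box, 37.4% the CCAAT box, 13.6% the TATA box, 7.15% the E-box and 8.30% TTCNNNGAA, and the median promoter had 7 CpG dinucleotides and 52.7% GC.
Cbfa2t3 start at the gene end (chr8:122699060-122699359, minus strand): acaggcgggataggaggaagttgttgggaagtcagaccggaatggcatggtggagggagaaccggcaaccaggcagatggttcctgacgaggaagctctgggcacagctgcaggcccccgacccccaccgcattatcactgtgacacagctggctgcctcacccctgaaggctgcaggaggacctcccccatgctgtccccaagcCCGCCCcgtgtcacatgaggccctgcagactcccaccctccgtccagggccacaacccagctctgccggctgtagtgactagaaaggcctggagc
Cbfa2t3 inner start (chr8:122678126-122678425, minus strand): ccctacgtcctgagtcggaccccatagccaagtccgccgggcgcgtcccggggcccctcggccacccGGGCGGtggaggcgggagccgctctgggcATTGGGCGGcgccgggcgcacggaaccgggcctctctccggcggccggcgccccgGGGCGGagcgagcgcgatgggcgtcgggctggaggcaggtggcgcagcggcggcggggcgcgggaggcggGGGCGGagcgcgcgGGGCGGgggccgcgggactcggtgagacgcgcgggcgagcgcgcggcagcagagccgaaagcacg
Cbfa2t2 (chr2:154436234-154436533, plus strand): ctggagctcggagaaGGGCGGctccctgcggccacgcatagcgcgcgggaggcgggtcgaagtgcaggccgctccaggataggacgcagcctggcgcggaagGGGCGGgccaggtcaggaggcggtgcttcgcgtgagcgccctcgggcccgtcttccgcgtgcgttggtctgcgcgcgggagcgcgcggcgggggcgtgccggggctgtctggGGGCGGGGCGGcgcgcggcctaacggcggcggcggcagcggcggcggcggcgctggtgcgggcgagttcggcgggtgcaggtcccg
Bcl6 inner start (chr16:23981234-23981533, minus strand): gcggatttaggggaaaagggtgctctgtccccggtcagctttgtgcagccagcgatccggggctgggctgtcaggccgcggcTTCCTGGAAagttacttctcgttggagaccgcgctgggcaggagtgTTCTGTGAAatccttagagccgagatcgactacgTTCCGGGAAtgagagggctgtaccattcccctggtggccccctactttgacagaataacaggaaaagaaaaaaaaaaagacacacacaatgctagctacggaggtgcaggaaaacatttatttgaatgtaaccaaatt
Zbtb20 inner start (chr16:43247034-43247333, plus strand): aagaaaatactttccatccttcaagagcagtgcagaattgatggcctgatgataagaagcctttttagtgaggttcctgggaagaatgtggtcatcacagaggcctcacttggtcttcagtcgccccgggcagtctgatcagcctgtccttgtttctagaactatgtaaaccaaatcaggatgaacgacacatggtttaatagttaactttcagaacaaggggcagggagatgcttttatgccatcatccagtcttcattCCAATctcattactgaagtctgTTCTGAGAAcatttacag

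The Cbfa2t3 promoter at the gene end had 10 CpG, 63.7% GC and 1 GC box, whereas its inner promoter had 53 CpG, 81.7% GC, 5 GC boxes and 1 CCAAT box that overlaps one of them. The only promoter of its paralog Cbfa2t2 in the table resembled the inner one, with 51 CpG, 79.0% GC and 4 GC boxes. The inner Bcl6 promoter had 14 CpG, no GC box and 3 TTCNNNGAA elements, the type of site that STAT factors bind. The Zbtb20 promoter was the poorest in CpG of the 5, with 3 CpG and 43.3% GC, 1 CCAAT box and 1 TTCNNNGAA. None of the 13 promoters held the TATA box letters. A match is a description of the letters only.

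Of the 29 shared regions, 22 had a positive log2 difference in tags and 7 a negative one, with a median of 0.17, beside 0.003 over all 12375 regions. Zbtb16 held 10 of the 29, all positive, and Zbtb20 7. Without these 2 genes 7 of 12 regions were positive, with a median of 0.02. With library totals as the scaling, which moved the median of all regions to -0.22, 13 of the 29 were positive and 21 lay above that median. By edgeR's quasi-likelihood test with Benjamini-Hochberg adjustment over all regions, 1.01% of all regions passed at 0.05, 56 higher and 69 lower (26 higher and 428 lower with library totals). Among the 29 shared regions of the 9 genes, 3 passed: both shared regions of Cbfa2t3, lower in d22 (0.558% of all regions passed in that direction), and 1 region inside Zbtb16, higher in d22 (0.453%). The same 3 were the only ones among the 29 whose CPM did not overlap between the title groups, as for 1.33% of all regions (0.743% with d22 lower, 0.59% with d22 higher). By limma, 0 of the 29 passed for tag density (0.0404% of all regions, 685 of them at an unadjusted p under 0.05) and 5 for the highest fold enrichment, all lower in d22 (20.2% of all regions). CPM are tags per 1000000 tags in shared regions, scaled by the trimmed mean of M values (TMM).

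**Figure D1:**
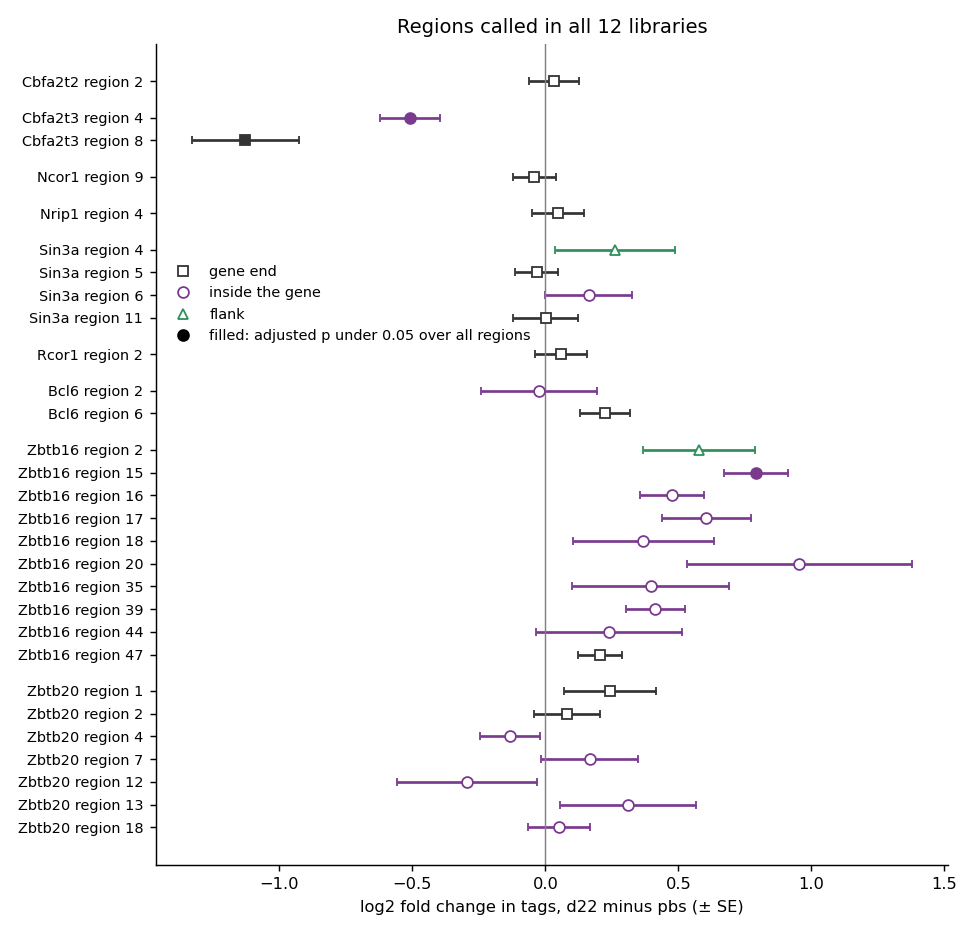
Difference in H3K9ac tags between d22 and pbs at the 29 shared regions of the 9 genes, in log2 units with standard errors. Squares are gene-end regions, circles regions inside the gene, triangles flanking regions, and filled symbols passed the adjusted threshold over all regions. The 2 regions of Cbfa2t3 lie farthest to the left, and the 10 regions of Zbtb16 all lie to the right of 0.

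Cbfa2t3 (also called ETO2 or MTG16) encodes a corepressor best known from blood cell development, where it joins complexes with Tal1. Its gene spans chr8:122625136-122699332 on the minus strand, and its shared regions sit at its 2 RefSeq starts. At the gene end, region 8 (chr8:122694602-122699462, which also overlaps Gm10612) had 21.1, 36.2 and 60.7 CPM as the lowest, median and highest d22 values, and 62.4, 78.2 and 87.5 CPM in pbs. All 6 d22 libraries lay below all 6 pbs libraries, with d22 4 the nearest. The means were 35.9 ± 14.6 and 76.7 ± 11.0 CPM (SD, n = 6 each), a log2 difference of -1.13 ± 0.20 (SE). The raw tags behind these values were 35 to 94 per d22 library and 99 to 246 per pbs library.

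At region 8 the called length differed by nearly as much as the tags. It was 1054 to 2906 bp in d22 and 2247 to 4363 bp in pbs, a log2 difference of -1.02 ± 0.23. The tag density within called sequence was 19.4 ± 5.68 CPM per kb in d22 and 21.2 ± 3.75 in pbs, a log2 difference of -0.16 ± 0.17 beside a median of 0.08 over all regions. The highest fold enrichment over input was 15.6 ± 5.68 in d22 and 27.2 ± 4.12 in pbs, a log2 difference of -0.85 beside -0.30 over all regions. From the start site, the called peaks of region 8 reached 2413 to 4199 bp into the gene in d22 and 3455 to 4507 bp in pbs, and the 2 ranges overlapped. In 4 d22 and 3 pbs libraries a peak covered the start site itself.

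**Figure D2:**
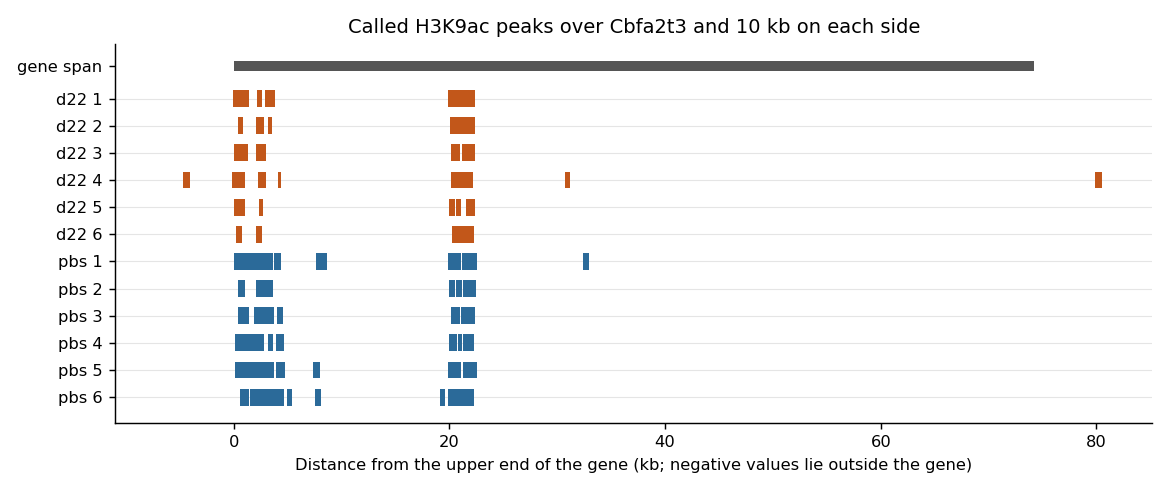
Called H3K9ac peaks (blocks) along Cbfa2t3 in each of the 12 libraries, by distance in kb from the upper end of the gene span, where transcription starts. Peaks gather at the gene end (region 8) and around 21.2 kb (region 4), at the inner start, and the blocks at the gene end are shorter in d22 than in most pbs libraries.

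At the inner start of Cbfa2t3, centred 21.2 kb into the gene, region 4 (chr8:122676761-122679485) had 38.4, 42.5 and 46.4 CPM as the lowest, median and highest d22 values and 50.5, 59.9 and 68.0 CPM in pbs. The groups again did not overlap, with means of 42.0 ± 3.08 and 59.6 ± 6.45 CPM and a log2 difference of -0.51 ± 0.11. Here the called length differed less, by -0.18 ± 0.10, and the density by -0.32 ± 0.13. Region 8 had by far the greater scatter among d22 libraries, and region 4 the smaller difference. The call at region 8 passed in 12 of 12 fits that each left out 1 library (log2 -1.29 to -1.01). The call at region 4 passed in 3 of those 12 and was lost without d22 2, 3, 5 or 6 or without pbs 1, 2, 3, 5 or 6, where the log2 difference stayed between -0.54 and -0.47 over all 12 fits. With 49 bp libraries only (6 d22 and pbs 2, 3 and 5) the differences were -1.07 and -0.53, and neither passed (edgeR adjusted p = 0.128 and 0.163).

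Over the whole span of Cbfa2t3 with its flanks, the libraries held 14.7 ± 4.84 called tags per 1000000 filtered tags in d22 and 29.7 ± 5.53 in pbs, over 4.31 and 6.76 kb of called sequence. Library d22 4 had 8 peaks there, against 4 or 5 in the other d22 libraries. Of its tags 74.8% lay at a gene end or start, against 100% in every other d22 library. The highest d22 library, d22 4, reached 23.2 and the lowest pbs library, pbs 2, was at 21.1, so over the whole gene the groups overlapped. Scaled instead to 1000000 tags in all peaks of the library, they did not: d22 libraries held 54.8 to 100.4 and pbs libraries 106.02 to 152 (log2 ratio of the means -0.84, against -1.02 with filtered tags). At the gene end alone lay 42.2% ± 6.03 of its d22 tags and 53.5% ± 5.11 of its pbs tags. Klf1 and Tal1, erythroid and megakaryocyte factors, were the 2 of 8 genes of that marker list with a shared gene-end region, at log2 differences of -0.17 and -0.05. Their summed tags were 13.8 to 17.7 per 1000000 filtered tags in d22 and 13.7 to 25.8 in pbs, while Hbb-bt, Gata1 and Pf4 had no gene-end peak. The part of blood cells in the Cbfa2t3 values was not tested.

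Cbfa2t2 (MTGR1), the ETO family paralog of Cbfa2t3, had 1 shared region. It covered the start (chr2:154435357-154439633, gene chr2:154436098-154539356) with 60.9, 69.9 and 77.7 CPM as the lowest, median and highest d22 values and 62.9, 68.6 and 75.2 in pbs. The groups overlapped, and the log2 difference was 0.03 ± 0.09. Its peak summits lay 243 to 365 bp downstream of the start in the 12 libraries.

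**Figure D3:**
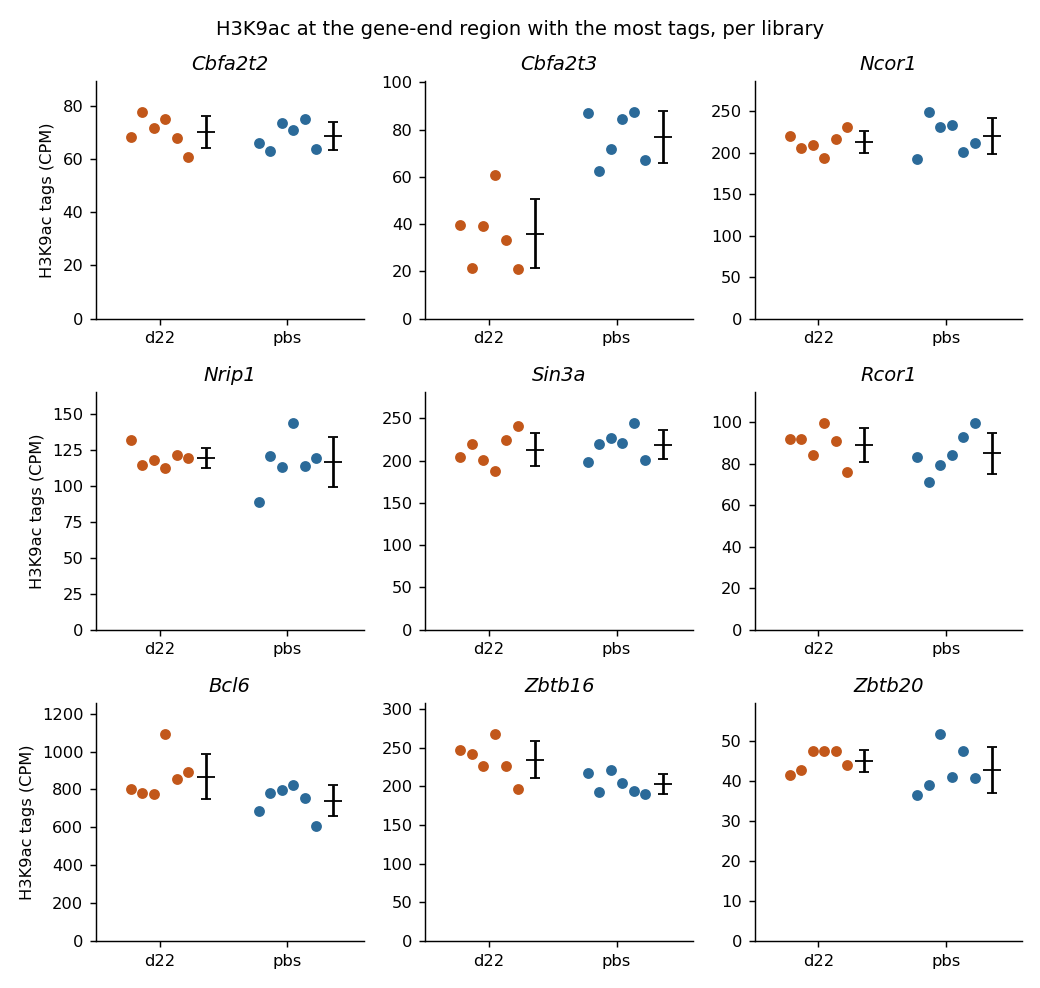
H3K9ac tags (CPM) at the lead region of each of the 9 genes, 1 point per library, with the mean and SD of each title group (n = 6) as a cross and bars. Only the Cbfa2t3 groups do not overlap; one d22 library of Bcl6, d22 4, stands above the rest at 1091 CPM.

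Ncor1, the scaffold that holds the deacetylase Hdac3 on nuclear receptors and Bcl6, had a single shared region at its upper end (chr11:62454932-62460470, gene chr11:62315663-62457414, minus strand), which also overlaps Pigl. It held 194, 213 and 231 CPM as the lowest, median and highest d22 values and 193, 221 and 249 in pbs, a log2 difference of -0.04 ± 0.08. At its RefSeq start inside the gene, no library had a peak within 1 kb. The region overlaps a neighbouring gene, so its tags cannot be assigned to Ncor1 alone.

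Sin3a, the scaffold of a separate deacetylase complex around Hdac1 and Hdac2, had 4 shared regions (gene chr9:57071991-57128368, plus strand). The lead region (chr9:57069579-57076057), which also overlaps the genes 2700012I20Rik and Gm10658 upstream, held 188, 212 and 241 CPM as the lowest, median and highest d22 values and 199, 220 and 244 in pbs, a log2 difference of -0.03 ± 0.08. Region 6 at its inner start (chr9:57076122-57077807) differed by 0.16 ± 0.16, the upper-end region 11, which overlaps Man2c1, by 0.002 ± 0.12, and the flanking region 4 by 0.26 ± 0.23. In each of the 4 the title groups overlapped.

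Rcor1 (CoREST), which couples Hdac1 and Hdac2 to the histone demethylase Kdm1a, had 1 shared region, at its start (chr12:111037853-111041041, gene chr12:111039367-111115902, plus strand). Its d22 values were 76.0, 91.5 and 99.6 CPM (lowest, median, highest) and its pbs values 71.4, 83.8 and 99.4, a log2 difference of 0.06 ± 0.10. Nrip1, a corepressor of ligand-bound nuclear receptors in metabolic tissues, also had 1 (chr16:76370826-76374430, gene chr16:76287403-76373827, minus strand), with 113, 119 and 132 CPM in d22 and 88.9, 117 and 144 in pbs, a log2 difference of 0.05 ± 0.10. The Nrip1 groups overlapped in tags.

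Bcl6 had the widest lead region of the 9 genes. The region, chr16:23978956-23995087, is 16132 bp wide, beside a median of 2752 bp over all shared regions, and only 0.541% of shared regions were 15 kb or wider. It covers both RefSeq starts, with the inner promoter printed above, and extends past the gene's upper end over Gm31527 (gene chr16:23965050-23988866, minus strand). Not divided by length, its mean of 804 CPM over the 12 libraries exceeded that of 99.95% of the 8591 gene-end lead regions in the series. The d22 values were 777, 829.1 and 1091 CPM (lowest, median, highest) and the pbs values 606, 767 and 822, so the groups overlapped and 3 of 6 d22 libraries lay above every pbs library. The log2 difference was 0.23 ± 0.09, with 0.06 ± 0.07 in called length, 0.16 ± 0.13 in density and -0.12 ± 0.18 in fold enrichment. A second shared region inside Bcl6 (chr16:23971170-23973757) held 37.5 ± 10.4 CPM in d22 and 37.1 ± 10.9 in pbs, a log2 difference of -0.02 ± 0.22.

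Zbtb16 was the most extensively marked of the 9. Its span (chr9:48651797-48836225, 184 kb) and flanks held 47 regions, 10 of them shared, and no other of the 21883 protein-coding genes had as many as 10 shared regions, without regard to gene length. The median gene had 1. With peaks up to 500 bp apart joined, 9 shared regions remained. Of the 10, 1 was at the upper end, 8 inside and 1 in the flank. They included a region of 15697 bp (region 16, chr9:48726808-48742504, centred 102 kb from the upper end) and 1 of 9450 bp (region 39, chr9:48793919-48803368, centred 37.6 kb from it). Only 16.1% ± 0.38 of the gene's tags in d22 and 20.3% ± 3.42 in pbs lay at the gene end.

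**Figure D4:**
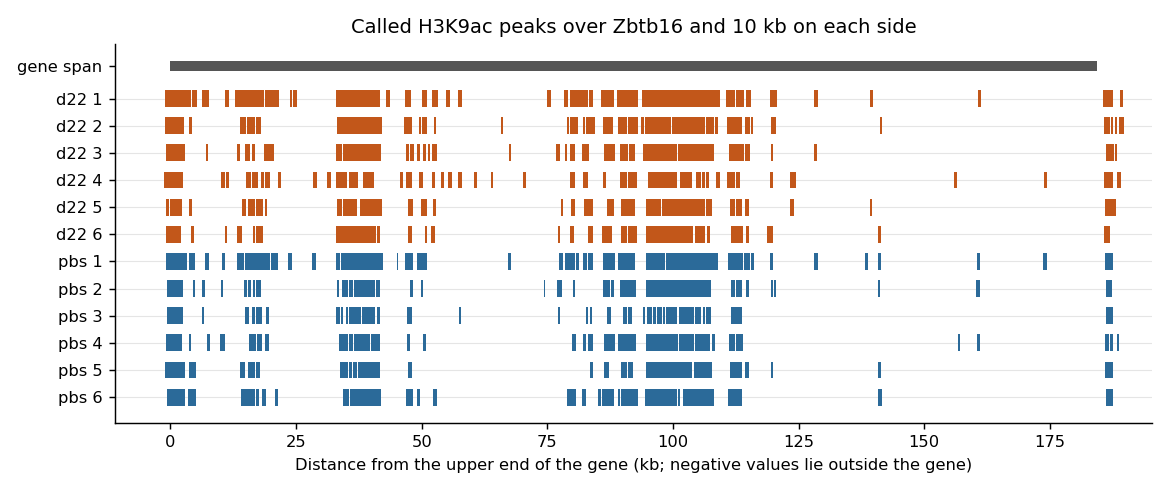
Called H3K9ac peaks (blocks) along Zbtb16 in each of the 12 libraries, by distance in kb from the upper end of the gene span. Blocks recur in every library at the upper end (region 47), around 37.6 kb (region 39) and around 102 kb (region 16). At regions 39 and 16 they are long in some libraries and broken into shorter blocks in others. The part of the span farthest from the upper end holds few blocks up to the flank.

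At Zbtb16 all 10 shared regions had a positive log2 difference in tags, from 0.21 to 0.96 with a median of 0.44. With library totals as the scaling 9 of 10 were positive and 10 of 10 above the median of all regions. Without d22 1, 9 of 10 were positive, with region 44 at -0.015. Region 15 (chr9:48722140-48725608), inside the gene and 112 kb from the upper end, was the one that passed. It held 77.8, 93.0 and 116 CPM as the lowest, median and highest d22 values and 47.4, 52.7 and 68.0 in pbs, so every d22 library lay above every pbs library. The log2 difference was 0.79 ± 0.12, and it passed in 12 of 12 fits that left out 1 library and with the 49 bp libraries alone (0.91, edgeR adjusted p = 0.016). The difference in called length was 0.13 ± 0.13 and that in density 0.67 ± 0.14 (36.3 ± 7.68 CPM per kb in d22 and 22.6 ± 2.74 in pbs).

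The neighbouring region 16 held 349, 427 and 470 CPM as the lowest, median and highest d22 values and 228, 296 and 383 in pbs. Of its d22 libraries 5 of 6 lay above every pbs library, and the log2 difference was 0.48 ± 0.12. Region 39 held 215, 233 and 257 CPM in d22 and 141, 169 and 230 in pbs, with 3 of 6 d22 libraries above every pbs library and a log2 difference of 0.41 ± 0.11. In both, pbs 1 was the highest pbs library. At the upper end, region 47 (chr9:48830927-48837471) had 197, 234 and 267 CPM in d22 and 190, 199 and 221 in pbs, a log2 difference of 0.21 ± 0.08 that was -0.01 with library totals. Region 20, with the widest difference of the 10 at 0.96 ± 0.42, also had the widest scatter, from 5.99 to 66.9 CPM among the pbs libraries.

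The measures at Zbtb16 did not all have the same sign. Density was higher in d22 in 10 of 10 shared regions (median log2 difference 0.33, beside 0.08 over all regions), called length in 9 of 10, and the highest fold enrichment in 4 of 10, against a median log2 fold enrichment of -0.30 over all regions. At region 47 the highest fold enrichment was 53.0 in d22 and 73.7 in pbs (log2 -0.48), the opposite direction to the tags. The d22 lists were called against an input of 12526421 tags and the pbs lists against one of 10409931, and the part of the inputs in the fold enrichment was not tested. Called sequence over the whole gene averaged 52.3 kb in d22 and 45.0 kb in pbs. Summed over it, the libraries held 259 ± 54.7 called tags per 1000000 filtered tags in d22 and 212 ± 47.7 in pbs, and the groups overlapped. The log2 ratio of those means was 0.29, and it was 0.47 with scaling to the tags in all peaks, where the groups overlapped too.

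Regions 32 and 1 of Zbtb16 were called mainly in 1 title group. Region 32 inside Zbtb16 (chr9:48783078-48784287) was called in 6 of 6 d22 libraries, with 14 to 37 tags, and in 1 of 6 pbs libraries, with 26. Region 1 in its flank (chr9:48646485-48648383) was called in 5 d22 libraries, with 11 to 35 tags, and in 1 pbs library, with 10. Among all regions called in 2 to 11 libraries, 0.518% were called in 5 or 6 d22 and 0 or 1 pbs libraries and 0.894% the reverse. With so few tags, a region missing from a list is not shown to lack the mark.

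Zbtb20, the largest span (chr16:42875689-43634392, 759 kb, plus strand), held 29 regions, 7 of them shared. Its lead region at the lower end (chr16:42875723-42877302, which also overlaps 4932412D23Rik) had 41.3, 45.7 and 47.4 CPM as the lowest, median and highest d22 values and 36.5, 40.8 and 51.6 in pbs, a log2 difference of 0.08 ± 0.12. Most of its tags lay elsewhere: inside the gene, region 18 (chr16:43362397-43366017) held 117 ± 11.7 CPM in d22 and 114 ± 21.4 in pbs, region 4 (chr16:42906685-42909808) 72.8 ± 5.04 and 80.3 ± 13.7, and region 7 (chr16:43234438-43237261) 48.8 ± 7.94 and 43.9 ± 13.5. The log2 differences of those 3 were 0.05, -0.13 and 0.17, each within the spread of the libraries. Over its 7 shared regions 5 differences were positive and 2 negative, from -0.30 to 0.31, and with library totals 2 were positive.

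The Zbtb20 promoter printed above overlaps region 10 (chr16:43247153-43248577) with its downstream part, while its upstream end lies outside. Region 10 was called in 2 d22 libraries, with 11 and 36 tags, and in 6 pbs libraries, with 17 to 56. Counting any peak within 1 kb of that start, 3 d22 libraries (d22 2, 3 and 5) and 6 pbs libraries had one. This region falls outside the naming rule and was chosen after its values were seen. It is the CpG-poor promoter of the 5 shown, and its peaks carried fewer tags than the region at the gene's lower end.

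The share of tags at gene ends and RefSeq starts was low in Zbtb16 and Zbtb20 and high in the other 7 genes. In Zbtb20 19.6% ± 2.16 of tags in d22 and 20.1% ± 1.51 in pbs lay within regions at an end or start. The 7 other than Zbtb16 and Zbtb20 held 87.4% to 98.8% there in d22 and 92.1% to 99.1% in pbs as group means. Library d22 4 was the lowest of the 12 for Rcor1 (59.0%), Ncor1 (70.8%), Cbfa2t3 (74.8%), Cbfa2t2 (75.2%) and Sin3a (76.7%). It held 91.8% for Bcl6 and 100% for Nrip1. Cbfa2t3 was at 95.8% ± 10.3 and 95.3% ± 5.49, with both its shared regions at starts. Zbtb16 has no start in the table, so its share counts the 2 gene ends alone. Its 6 d22 libraries lay between 15.7% and 16.6%, while the pbs libraries ran from 15.3% to 23.8%.

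**Figure D5:**
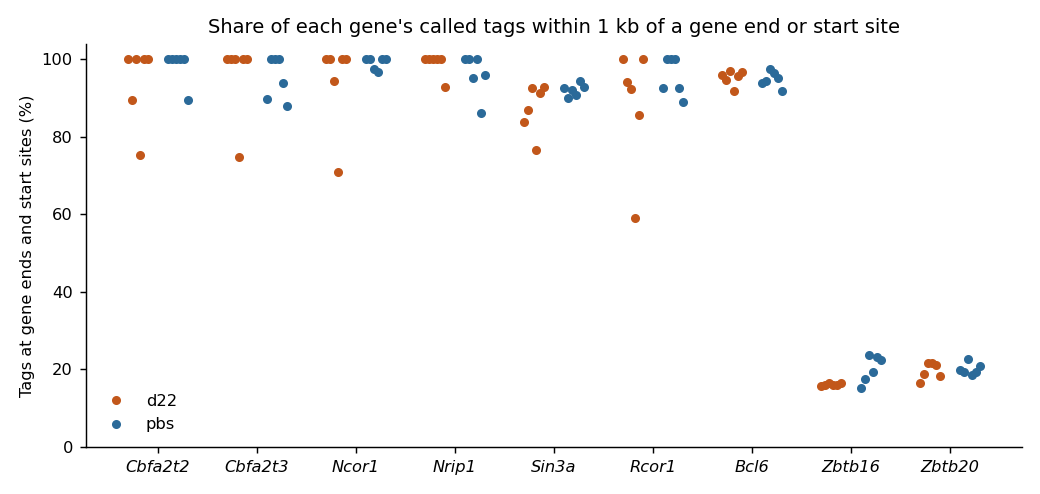
Percent of each gene's called tags that lies in regions within 1 kb of a gene end or RefSeq start, 1 point per library. Zbtb16 and Zbtb20 lie at or below 23.8% in every library, and the other 7 genes at or above 59.0%, the value of Rcor1 in d22 4.

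Levels can be compared between genes only per length. As tag density at the lead region, Bcl6 was highest with 59.8 ± 10.1 CPM per kb in d22 and 53.1 ± 7.10 in pbs, followed by Zbtb16 (57.4 ± 10.6 and 48.0 ± 11.7) and Ncor1 (50.8 ± 4.42 and 50.1 ± 6.19). Nrip1 (40.2 ± 3.67 and 37.4 ± 4.93), Sin3a (39.1 ± 6.67 and 36.6 ± 3.28), Cbfa2t2 (38.8 ± 11.9 and 34.8 ± 4.20), Zbtb20 (38.1 ± 5.50 and 38.8 ± 12.5) and Rcor1 (35.3 ± 3.18 and 32.3 ± 2.85) followed. Cbfa2t3 was lowest, at 19.4 and 21.2. Neighbours in this order differed by less than the larger of their SDs in both groups, except Ncor1 against Nrip1 and Rcor1 against Cbfa2t3, which differed by more than either SD. Genes that are not neighbours could also lie apart: Nrip1 exceeded Rcor1 by more than 1 SD of either gene in both groups.

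Among lead regions of the 9 genes, 1 passed (Cbfa2t3, lower), 6 differences were positive and 3 negative, and the median was 0.05, beside 0.003 over the 8591 gene-end lead regions, of which 0.78% passed and 0.535% passed as lower. For the wider families, 29 other corepressor complex genes and 39 other BTB zinc finger genes were examined at their lead regions. Of the corepressor genes 24 had a shared lead region and 0 passed in either direction by edgeR, with 0 at an unadjusted p under 0.05 and 0 by DESeq2. Their median log2 difference was 0.11, 6 were negative, and the range was -0.22 to 0.32. The smallest p belonged to Brms1, a Sin3 complex subunit (0.28 ± 0.14, at a region shared with B4gat1), Kdm1a, the demethylase partner of Rcor1 (0.32 ± 0.17), and Sap30, a Sin3 complex subunit (0.18 ± 0.10).

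Of the 39 other BTB genes, 34 had a shared lead region, in 33 distinct regions, and 0 passed in either direction by edgeR, with 3 at an unadjusted p under 0.05, near the 10.9% of all regions, and 0 by DESeq2. The median was 0.03, with 11 negative and a range of -0.20 to 0.70. The smallest p belonged to Zbtb21 (88.6 ± 9.76 CPM in d22 and 75.3 ± 6.53 in pbs, log2 0.24 ± 0.09), Zbtb18 (47.3 ± 5.74 and 37.2 ± 6.61, 0.34 ± 0.14) and Zbtb7c (37.0 ± 8.48 and 22.1 ± 12.2, 0.70 ± 0.32). Runx1t1, the third ETO family gene, and Hdac4, Hdac7, Zbtb38 and Zbtb46 had no gene-end peak in any library.

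For 8 of the 9 genes, the protein-coding gene on another chromosome with the most similar lead region is given, taken as the smallest mean absolute difference in log2 CPM over the 12 libraries after centring each gene on its mean. For Cbfa2t3 it was Igfbp2, which encodes an insulin-like growth factor binding protein secreted by the liver. The difference was 0.26 log2 units, beside a median of 0.64 over 8112 candidates, and Igfbp2 itself had a log2 difference between the groups of -0.86. The measure follows the 12 libraries, and both genes had the lower mean in d22. For Bcl6 it was Morf4l1 (0.05), for Zbtb16 Ciz1 (0.07), for Nrip1 Mtmr10 (0.07), for Sin3a Rad23b (0.05) and for Rcor1 Spast (0.07), against candidate medians of 0.18 to 0.22. Regions shared by several genes came out for Cbfa2t2 (H2-Ke6, Rxrb and Slc39a7, 0.05) and for Zbtb20 (Cpsf4 and Ptcd1, 0.06).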

How the data were processed

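H3K9ac ChIP-seq was available as 12 peak lists, 6 titled d22 and 6 titled pbs, each called by the authors against the pooled input of its title group. CASAVA 1.8, Novoalign, MACS 1.4.2 and the mm10 build are named in the submitters' processing notes. Peak calling had a p cutoff of 1e-05, per the file headers, with a band width of 300 bp and at most 1 tag per position. The deposited lists give, per peak, the raw tag count, the score (-10 log10 of the peak caller's p), the fold enrichment as a ratio to the local background, and the false discovery rate as a percent. The score served only for a stricter alternative, and the percent was not used.

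Tags exist only for called peaks, so a region's tags depend on the called length. Overlapping peaks were merged, and the 12375 regions called in all 12 libraries were tested with edgeR 4.0.16 (R 4.3.3, TMM, robust quasi-likelihood, Benjamini-Hochberg, threshold 0.05). The fit was also run on simulated counts for fixed regions, which did not copy the dependence of tags on called length. Length, density and fold enrichment were fitted on the log2 scale with limma 3.58.1, and DESeq2 1.42.0 was an alternative. Standard errors are the fits'. No 2 libraries agreed within sampling noise (chi-square per degree of freedom of 2.41 to 10.3 over 66 pairs). RefSeq spans (GRCm38.p6, the mm10 assembly) carry no exons, so exon and intron positions are not given.

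The 9 genes and the lists were chosen with earlier results of these data known. Named were every lead region, every region that passed, the 3 further regions with the most tags per gene, regions called in 5 or 6 libraries of 1 title group and 0 or 1 of the other, per family list the genes that passed and the 3 smallest p, and per gene the most similar gene on another chromosome (for Ncor1 not reported here).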

Additional observations from a re-analysis of the deposited data

Results flagged for a closer look

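Among 36 sets of 6 library values (lead region CPM and whole-gene tags per 1000000 filtered tags, for the 9 genes in each title group), 2 had a library far from the others, and chance flags about 1 in 20 sets. At the Bcl6 lead region, d22 4 held 1091 CPM while the other 5 d22 libraries held 777 to 890. Without d22 4 the log2 difference at that region was 0.16. Over the whole Zbtb16 gene, pbs 1 held 302.6 called tags per 1000000 filtered tags while the other 5 pbs libraries held 160 to 207. Without pbs 1 the log2 ratio of the group means over the gene was 0.42, against 0.29 with it.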

How the results depend on the processing

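The count of regions passing over the series was 125. It was 272 with DESeq2, 454 with library totals as the only scaling, 5 for CPM per kb of called length, 2503 for the highest fold enrichment, 0 for called length (limma, 843 at an unadjusted p under 0.05) and 39 with the 49 bp libraries alone, a fit chosen after seeing the data that holds fewer libraries. Of the 29 shared regions of the 9 genes 3 passed, beside 1.01% of all regions. By DESeq2 6 passed (Zbtb16 regions 16, 17 and 39 added), beside 2.2% of all regions. The count was 0 for CPM per kb, 5 for fold enrichment (all lower in d22) and 0 for called length. For fold enrichment 6 of 24 lead regions of the other corepressor genes and 9 of 33 of the other BTB genes passed. Over all regions 20.2% passed for that measure, 166 higher and 2337 lower in d22, and the cause was not tested. Leaving out 1 library at a time gave 64 to 139 regions over the series, fewest without pbs 3, and 2 to 4 among the 9 genes. The largest moves over the series were without d22 2 (72) or 6 (70) and without pbs 2 (76), 3 (64), 4 (69) or 5 (70).

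Scaled to the tags in all peaks of the library, the log2 ratios of whole-gene tags were -0.000812 for Ncor1, 0.047 for Sin3a, 0.18 for Bcl6 and -0.020 for Zbtb20, against -0.19, -0.14, 0.002 and -0.21 with filtered tags. By the same change Zbtb16 moved from 0.29 to 0.47, Rcor1 from -0.01 to 0.18 and Cbfa2t3 from -1.02 to -0.84. Zbtb16 had 20.9% of its tags at gene ends with a 2 kb window. Counting gene ends without inner starts, an alternative chosen after seeing the data, the percent of tags was 47.8 for Cbfa2t3, 77.3 for Sin3a and 17.5 for Zbtb20. Cbfa2t3 region 4 also lost its call with peaks of a score of at least 100 (edgeR adjusted p = 0.153). With a flank of 2 kb, 28 of the 29 shared regions remained.

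Whether the replicate numbers pair the libraries was not settled by the tags. Correlations of same-numbered deviations ran from -0.006 to 0.16, and 1 of 6 d22 libraries correlated best with its own number. With the replicate number as a block, 128 regions passed over the series and 4 among the 9 genes (3 higher and 1 lower), with Cbfa2t3 region 4 no longer among them (edgeR adjusted p = 0.081). The lists report no tags outside called peaks, which limits every comparison to called sequence.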
